A study of Mus musculus with 3 samples.

Results

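The collagen genes described here are the 42 genes of the mouse whose symbol reads *Col*, a number, *a* and a number, out of 18193 genes with a probe set of their own on the array. Membership was set by name alone, among probe sets that carry 1 gene symbol. The family itself was chosen with earlier results of these data known. In all, 82 probe sets named these genes, 27 genes had more than 1, and for each gene the values are those of its brightest probe set, judged by the mean of the 3 arrays. By structure, 11 genes encode chains of fibrillar collagens, 6 of type IV, 5 of type VI and 9 of the fibril-associated collagens with interrupted triple helices and their relatives (FACIT). A further 3 encode chains of hexagonal networks, 4 transmembrane collagens, 2 multiplexins, and 2 (*Col7a1* and *Col26a1*) fall in none of these classes.

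Collagens are triple helices built from 3 chains with glycine at regular steps along each of them. Fibrillar collagens form the fibres of mesenchyme, bone and cartilage, type IV collagen forms the sheet of the basement membrane, type VI forms beaded filaments around cells, FACIT collagens sit on the surface of fibrils, and transmembrane collagens span the plasma membrane. In the palate, 2 shelves of neural crest mesenchyme covered by epithelium meet in the midline, the epithelial seam between them disappears, and bone later forms in the joined mesenchyme.

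Maxillae of ICR fetuses at embryonic day 14 (E14), labelled female, were kept as explants in rotating suspension culture in BGJb medium with antibiotics, and no group carried an allele or a further treatment. RNA of small pieces of palate was measured on 3 Affymetrix mouse genome arrays, of which 1 stood for each stage: 5 h of culture for the stage before fusion, 24 h for that during and 60 h for that after it. The piece was the margin of the shelf before fusion and midline tissue at both later stages, so stage, hours of culture and piece of tissue cannot be told apart. The study collected 5 samples per stage, and whether their RNA was combined for an array is not stated.

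The RefSeq promoter table of the mouse build GRCm38.p6 held 33 of the 42 genes, in 36 windows, and those of *Col1a1*, *Col2a1*, *Col4a3*, *Col5a2*, *Col9a3*, *Col12a1*, *Col14a1*, *Col22a1* and *Col26a1* were not in it. In the 250 bases before each start, 4 short motifs were searched on both strands, and a window was counted once however many matches it held. The letters TATAAA stood in 5 of the 36 collagen windows and in 12.4% of all 32851 windows. CCAAT stood in 13 collagen windows and in 33.8% of all windows. The GC box GGGCGG stood in 21 of 36 collagen windows (58.3%), against 32.7% of all windows. The RUNX core letters TGTGGT stood in 3 collagen windows and in 14.05% of all windows. The share with the GC box was thus the one that differed most between collagens and all genes, which is a description of the letters and not of any factor.

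The 3 windows printed here belong to genes whose signals are described below, 1 with no TATAAA and 2 with it, and the letters of the 4 motifs, read on either strand, are in capitals. *Col1a2* is on chromosome 6 (chr6:4505368-4505617, plus strand), with GGGCGG at 205 and 188 and CCAAT at 109 bases before the start. *Col11a2* is on chromosome 17 (chr17:34038888-34039137, plus strand), with TATAAA at 143 and CCGCCC at 133 and 38 bases before the start. *Col17a1* is on chromosome 19 (chr19:47692043-47692292, minus strand), with TATAAA at 140 and 91, TGTGGT at 84 and ATTGG at 31 bases before the start.
Col1a2: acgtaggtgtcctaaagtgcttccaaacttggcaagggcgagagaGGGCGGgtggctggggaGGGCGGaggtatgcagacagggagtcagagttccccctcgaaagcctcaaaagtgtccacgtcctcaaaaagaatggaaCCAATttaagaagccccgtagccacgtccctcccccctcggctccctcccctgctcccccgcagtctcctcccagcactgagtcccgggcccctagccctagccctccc
Col11a2: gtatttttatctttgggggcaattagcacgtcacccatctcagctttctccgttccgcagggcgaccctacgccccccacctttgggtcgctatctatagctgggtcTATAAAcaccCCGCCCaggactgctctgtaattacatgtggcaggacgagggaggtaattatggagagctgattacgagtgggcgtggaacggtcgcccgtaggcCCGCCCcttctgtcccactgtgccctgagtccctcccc
Col17a1: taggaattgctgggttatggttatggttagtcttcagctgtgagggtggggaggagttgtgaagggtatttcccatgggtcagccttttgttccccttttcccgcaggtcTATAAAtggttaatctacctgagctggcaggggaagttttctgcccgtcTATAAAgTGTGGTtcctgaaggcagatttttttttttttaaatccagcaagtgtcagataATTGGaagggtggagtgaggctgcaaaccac

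The genes *Col4a1* and *Col4a2*, whose chains assemble with each other, lie head to head on chromosome 8, with annotated starts 21 bases apart, so that the first bases of both annotated transcripts overlap. The stretch from one start to the other (chr8:11312805-11312826, plus strand), which holds GGGCGG, and a stretch that holds CCAAT at 32 bases before the start of *Col4a2* (chr8:11312761-11312790, plus strand) are shown because their signals are set side by side below.
Starts: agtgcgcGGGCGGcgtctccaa
CCAAT stretch: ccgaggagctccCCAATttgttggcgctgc
Another head-to-head pair of type IV, *Col4a5* and *Col4a6* on the X chromosome, has starts 1343 bases apart. The promoter table held no window of *Col4a3*, so the starts of *Col4a3* and *Col4a4* were not compared. Other neighbours among the 42 genes were *Col3a1* and *Col5a2*, *Col9a1* and *Col19a1*, and *Col4a3* and *Col4a4* on chromosome 1, *Col6a1* and *Col6a2* on chromosome 10, and *Col6a4* and *Col6a5* on chromosome 9.

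Signals are the deposited MAS5 intensities after scaling of the arrays to one trimmed mean, in arbitrary units. The floor of an array is the level under which 95% of 81 probe sets for sensory receptors lay, and it was 19.4 before, 13.3 during and 14.7 after fusion. A signal under the floor was raised to it for a ratio, which is then a bound ("at least"), and no ratio is given where both arrays were under their floors. Since 1 array stands for each stage, no test between stages was possible, and the only measure of spread comes from genes with several probe sets. Probe sets of a gene read the same RNA on the same arrays, so this spread leaves out differences between animals, dissections and arrays. The SD in log2 units between probe sets of a gene was 0.37 when the arrays during and before fusion were compared, 0.46 for those after and before, and 0.44 for those after and during (factors of 1.29, 1.38 and 1.36). All 6 basal epithelial and all 7 palatal mesenchymal markers lay above the floor on every array.

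Of the 42 collagen genes, 32 were above the floor on all 3 arrays, 5 (*Col4a3*, *Col4a4*, *Col6a5*, *Col10a1* and *Col19a1*) on none, and the other 5 on 2 arrays. Among the 37 genes with a ratio, the signal was highest after fusion for 23, before fusion for 8 and during fusion for 6. At least 1 of the 3 comparisons passed 2-fold for 20 genes, of which 15 were higher and 5 (*Col2a1*, *Col9a1*, *Col15a1*, *Col18a1* and *Col25a1*) lower at the later stage. The highest stage and the calls pooled over comparisons were not counted over all genes, so these numbers have no share to stand beside. Shares of all genes are given for each comparison below. In a mixed tissue, fewer cells of a type and less RNA per cell cannot be told apart. The 3 comparisons share arrays in pairs and are not independent of each other.

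**Figure D1:**
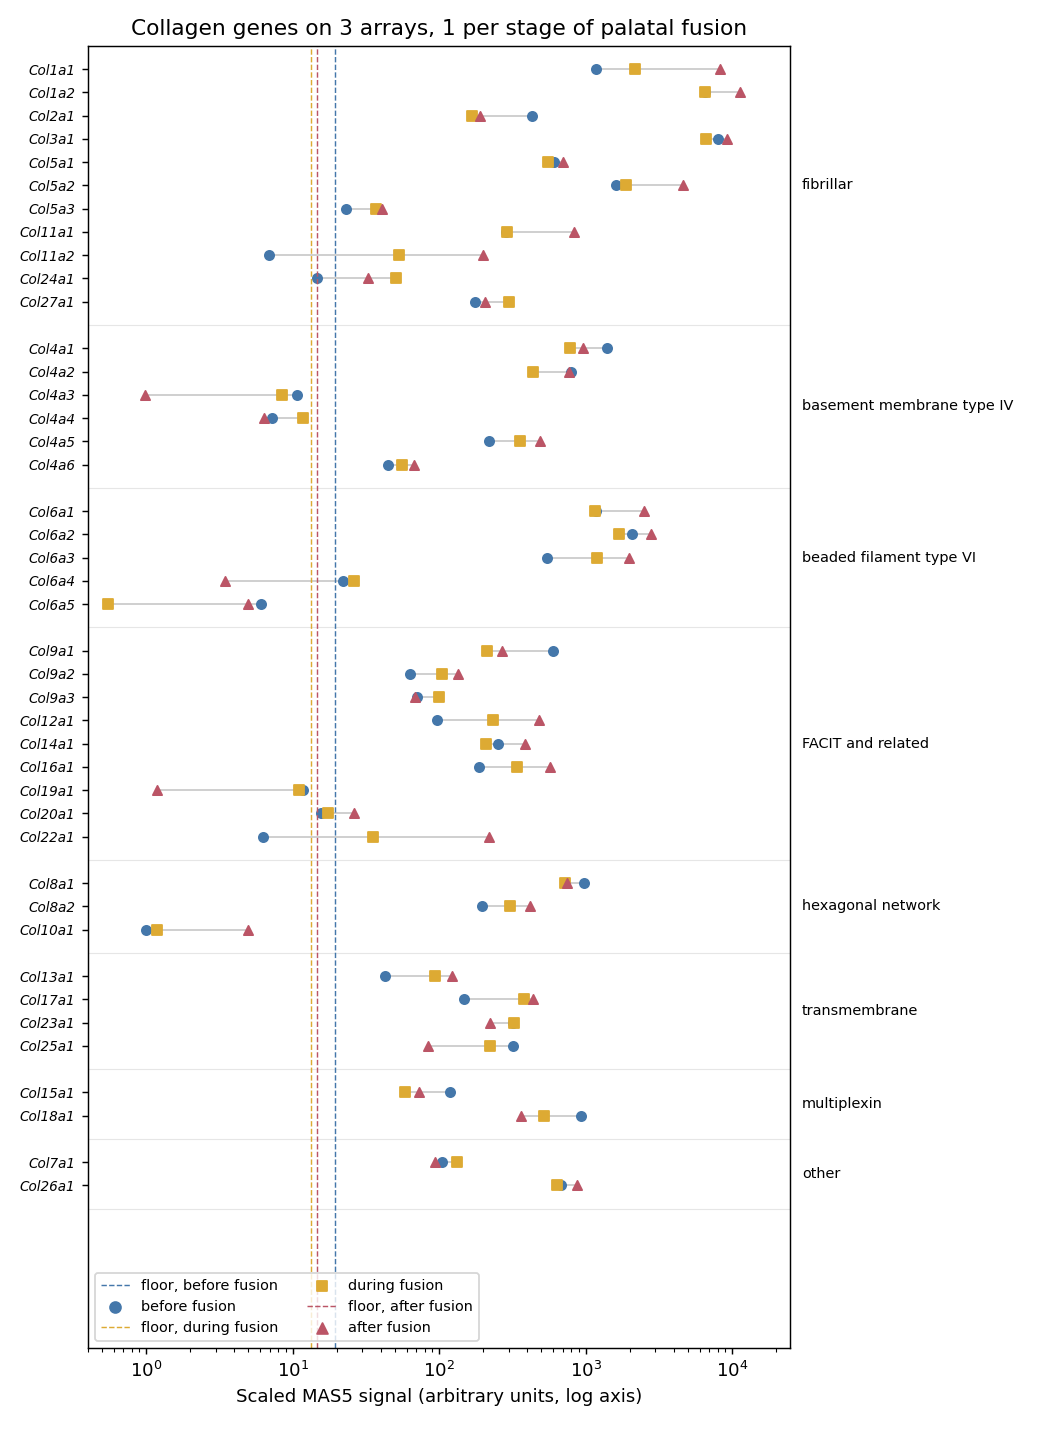
Scaled MAS5 signal (arbitrary units, log axis) of each of the 42 collagen genes by class, with 1 point for each array (circle before, square during, triangle after fusion) and dashed lines at the floors of 19.4, 13.3 and 14.7. Circles hidden under squares are nearly equal values, as for *Col1a2* (6522 and 6575), and 5 genes lie left of the floors on every array.

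During fusion against before fusion, 6 of 37 collagen genes (16.2%) were over 2-fold higher, beside 5.46% of all genes, and 3 (8.11%) were over 2-fold lower, beside 3.19%. The 6 were *Col6a3*, *Col11a2*, *Col12a1*, *Col13a1*, *Col17a1* and *Col24a1*, and the 3 were *Col2a1*, *Col9a1* and *Col15a1*. *Col11a2* and *Col24a1* were under the floor before fusion, so their ratios are bounds that could not come out lower. The median log2 ratio was 0.22 for collagens and 0 for all genes. After fusion against before fusion, 14 of 37 (37.8%) were higher, beside 12.6% of all genes, and 4 (10.8%) were lower, beside 9.6%. Of the 14, *Col11a2* and *Col22a1* were such bounds, and the shares of all genes include bounds by the same rule. The median was 0.58 for collagens and -0.05 for all genes. After against during fusion, 7 of 37 (18.9%) were higher, beside 8.73% of all genes, and 1 (2.70%) was lower, beside 5.08%, with medians of 0.38 and -0.03.

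The split between higher and lower depended on the scaling mainly in the first comparison. During over before fusion it was 6 to 3 here, 10 to 2 with the signals as deposited, 7 to 2 with scaling to the hybridization controls and 4 to 6 with the poly-A controls. After over during fusion it was 7 to 1 here and 5 to 2 with the hybridization controls, whereas after over before fusion 10 to 14 genes were higher and 3 or 4 lower under each scaling. These scalings moved the median of all genes by 0.23, 0.13 and -0.10 on the log2 scale in the 3 comparisons (deposited signals), by -0.17 and -0.26 in the first and the second (poly-A controls), and in the last by -0.17 (hybridization controls) and 0.13 (one median).

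**Figure D2:**
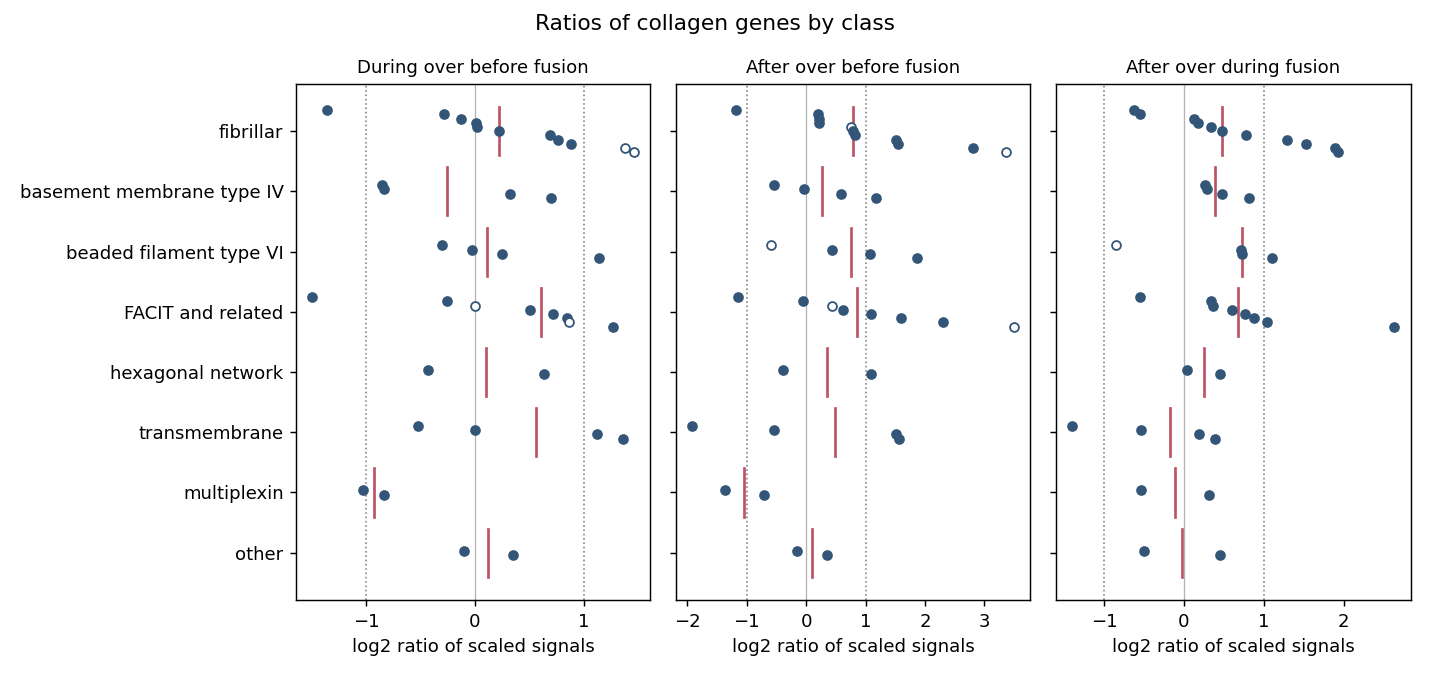
Log2 ratio of scaled signals in the 3 comparisons for the collagen genes of each class (x axis, log2 units), with 1 point per gene, open where the ratio is a bound, a red bar at the class median and dotted lines at 2-fold. In the middle panel 14 points lie past the right line and 4 past the left, and the class medians run from -1.04 (multiplexins) to 0.85 (FACIT).

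Type I collagen is the main fibre of bone, skin and tendon. The signal of *Col1a1*, which encodes its major chain, was 1181 before, 2180.5 during and 8298.5 after fusion, so it was 1.85-fold higher during and 7.03-fold higher after fusion. The other probe set of *Col1a1* gave 445, 751 and 3353, with ratios of 1.69 and 7.54. Both probe sets thus placed most of the difference between the arrays during and after fusion, with ratios of 3.81 and 4.46. *Col1a2*, the other chain of type I, had 6522, 6575 and 11272, with ratios of 1.01 during and 1.73 after fusion. A dimmer probe set of *Col1a2* had 2358, 2642 and 6976 and a ratio of 2.96 after fusion, and the dimmest had 40.03, 50.8 and 32.0 and a ratio of 0.801. The array after fusion was therefore the highest for both chains in each of their probe sets except the dimmest one of *Col1a2*.

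*Col3a1*, the fibrillar collagen of loose connective tissue, had 8062 before, 6630.4 during and 9222 after fusion, and its ratios of 0.822 and 1.14 stayed within 2-fold. Type V collagen lies in the core of type I fibrils and helps to set their width. Its chain gene *Col5a2* had 1609, 1876 and 4598, a ratio of 2.86 after fusion, while its other probe set had 1379, 1285 and 1893 and a ratio of 1.37. *Col5a1* had 609, 558 and 705 (ratios 0.916 and 1.16), and *Col5a3* had 23.1, 37.3 and 40.8 (ratios 1.62 and 1.77). Of the type V chains, only *Col5a2* passed 2-fold, and it did so with 1 of its 2 probe sets.

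Type II and type XI collagens form the fibrils of cartilage, and type XI chains also occur in other tissues. *Col2a1*, the cartilage fibril gene, had 429 before, 167 during and 189 after fusion, ratios of 0.390 and 0.441. *Col11a1* had 287, 292 and 840.0, so it was 1.02 during and 2.92 after fusion relative to before, and its other probe set had 124, 188 and 280, a ratio of 2.26 after fusion. *Col11a2* was under the floor before fusion at 6.91 and had 53.5 and 199 at the later stages, which gives bounds of 2.76-fold higher during and 10.3-fold higher after fusion. The type XI chains were thus highest after fusion, while *Col2a1*, whose product also serves as a chain of type XI collagen, was highest before it.

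Of the 2 remaining fibrillar genes, *Col24a1*, known from forming bone and cornea, was under the floor before fusion (14.6) and had 50.6 and 32.8 later, so it was at least 2.61-fold higher during fusion and 1.69-fold higher, again as a bound, after it. *Col27a1*, a fibrillar collagen of cartilage, had 177, 302 and 206, with ratios of 1.70 and 1.16. Both were highest during fusion. With the median of each array as its floor, the bounds during fusion were 1.84 for *Col24a1* and 1.95 for *Col11a2*. Across the 11 fibrillar genes the median log2 ratio was 0.22 during and 0.79 after fusion.

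Bone and cartilage markers were measured beside these genes. For the counts of these and all other cell markers, the shares of all genes during over before fusion were 5.46% higher and 3.19% lower. After over before fusion the shares were 12.6% and 9.6%, and the marker lists were written with earlier results known. Of 8 osteoblast markers, 5 had a probe set, and their summed signal was 247 before, 3152 during and 5735 after fusion. All 5 were over 2-fold higher after fusion, and 4 of them during fusion. *Ibsp*, which encodes bone sialoprotein, had 6.36 before fusion, under the floor, and made up most of the sum at both later stages with 2431 and 4679, whereas *Alpl*, alkaline phosphatase, made up most of it before fusion with 179. *Phex* was at least 6.83-fold, *Dmp1* at least 4.38-fold and *Alpl* 3.80-fold higher after fusion. The summed signal of the 8 chondrocyte markers was 284, 254 and 290.0, with *Matn1* and *Comp* under the floor on every array. Of the 6 chondrocyte markers with a ratio after over before fusion, 1 was over 2-fold higher (*Hapln1*, at least 2.20-fold) and 1 over 2-fold lower (*Sox9*, ratio 0.487), and their median log2 ratio was 0.44. During over before fusion, 1 of 5 with a ratio was over 2-fold higher and 0 lower, with a median of -0.40. The higher one, *Acan*, had 11.5 before fusion, under the floor, and 52.3 and 38.7 later, with bounds of 2.70 and 1.99. The part of these cell types in the collagen ratios was not tested.

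Type IV collagen differed between its chain pairs. *Col4a1* and *Col4a2*, which form the network of most basement membranes, were both lower during fusion. *Col4a1* had 1391 before, 780 during and 954 after fusion (ratios 0.560 and 0.686), and its other probe set had 534, 292 and 461 (ratios 0.547 and 0.862). *Col4a2* had 794, 439 and 772, with ratios of 0.553 and 0.973. Neither passed 2-fold, except with scaling to the poly-A controls, where the ratios during fusion were 0.493 and 0.486. During fusion the ratios of the pair lay within a factor of 1.01 of each other. In contrast, *Col4a5* had 218, 354 and 492, with ratios of 1.62 and 2.26, and its other probe set had 93.4, 160.0 and 215, with ratios of 1.71 and 2.30. *Col4a6*, which lies beside it and whose chain assembles with that of *Col4a5* in epithelial basement membranes, had 44.7, 55.8 and 66.9, with ratios of 1.25 and 1.5, while its other probe set had 22.9, 43.6 and 29.8, with ratios of 1.91 and 1.30. *Col4a3* and *Col4a4*, known from the kidney glomerulus, were under the floor throughout.

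Endothelial markers, whose cells are rich in *Col4a1* and *Col4a2*, moved with that pair during fusion. The summed signal of the 6 was 888 before, 449 during and 494 after fusion, and 4 of 6 were over 2-fold lower during and 1 after fusion. The summed signal of the 6 basal epithelial markers was 6628, 13711 and 15089, and 3 of 6 were over 2-fold higher at either later stage. Their part in the type IV ratios was not tested.

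Type VI collagen is the beaded filament that surrounds cells in most connective tissues, and 2 of its 5 genes, *Col6a1* and *Col6a3*, were over 2-fold higher after fusion. *Col6a3* had 542 before, 1196 during and 1968 after fusion, with ratios of 2.21 and 3.63. *Col6a1* had 1182, 1162 and 2501, with ratios of 0.983 and 2.12, and its neighbour *Col6a2* had 2066, 1681 and 2775, with ratios of 0.814 and 1.34. *Col6a3* was therefore already higher during fusion, when *Col6a1* and *Col6a2* were within a factor of 1.23 of their levels before fusion. *Col6a4* was near the floor, with 22.2, 26.4 and 3.45, and *Col6a5* was under it on each array.

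Among the FACIT collagens, *Col12a1* and *Col22a1* had the largest ratios. *Col12a1*, which binds to type I fibrils, had 97.2 before, 234 during and 481 after fusion, so it was 2.41-fold and 4.94-fold higher. Its other probe set above the floor had 54.2, 100.1 and 257, with ratios of 1.85 and 4.74. *Col22a1*, a collagen of tissue junctions such as that of muscle and tendon, had 6.24, 35.4 and 220.1, which gives bounds of 1.82-fold during and 11.3-fold higher after fusion. Its other probe sets had 23.1, 53.4 and 147, and 1.78, 26.5 and 95.1, with ratios after fusion of 6.36 and at least 4.90. All 3 probe sets of *Col22a1* rank the arrays in the same order, although the size of the ratio varied between them.

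The tendon markers, 3 in number, had sums of 211, 219 and 142 before, during and after fusion with none past 2-fold, and the 6 skeletal muscle markers had sums of 553, 191 and 96.0 with 5 over 2-fold lower at either later stage. The part of these cell types in the ratios of *Col22a1* was not tested.

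*Col16a1*, found near fibrils and basement membranes, had 189 before, 338 during and 573 after fusion, with ratios of 1.79 and 3.03. *Col14a1*, which like *Col12a1* binds to fibrils, had 252, 211 and 387, with ratios of 0.837 and 1.54, and its other probe set above the floor gave 0.884 and 1.49. *Col20a1* was near the floor on each array, with 15.7, 17.4 and 26.3, and *Col19a1* was under it. The FACIT genes thus had a median log2 ratio of 0.61 during and 0.85 after fusion, while the ratios of single genes ran from 0.450 to at least 11.3 after fusion.

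The lowest of these was *Col9a1*, 1 of the 3 chains of type IX collagen, which coats cartilage fibrils. It had 596 before, 212 during and 268 after fusion, with ratios of 0.355 and 0.450, and its other probe set had 152, 70.4 and 93.0, with ratios of 0.464 and 0.613. *Col9a2* had 63.7, 105 and 135, with ratios of 1.64 and 2.12. *Col9a3* had 70.8, 101 and 68.4, with ratios of 1.42 and 0.966, and its other probe set above the floor had 63.3, 105 and 47.5. By their brightest probe sets, chains that assemble into 1 molecule were hence over 2-fold lower, over 2-fold higher and within 2-fold after fusion.

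Of the collagens of hexagonal networks, *Col8a1*, a collagen of vessel walls and of sheets under endothelia, had 979, 726 and 746, with ratios of 0.742 and 0.762. Its partner *Col8a2* had 197, 306 and 418, with ratios of 1.55 and 2.13. *Col10a1*, the collagen of hypertrophic cartilage, had 1.00, 1.19 and 4.93, under the floor throughout.

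The transmembrane collagens moved both ways. *Col17a1*, the hemidesmosomal collagen of basal keratinocytes, had 149 before, 381 during and 436 after fusion, so it was 2.57-fold and 2.94-fold higher. *Col13a1*, found at cell adhesion sites and at the junction of nerve and muscle, had 42.9, 93.5 and 122, with ratios of 2.18 and 2.84. Both had most of their difference between the arrays before and during fusion, since their ratios after over during fusion were 1.14 and 1.30. *Col25a1*, needed for motor nerves to enter muscle, had 318, 222 and 84.1, with ratios of 0.698 and 0.265, and its other probe set had 42.9, 21.6 and 28.3, with ratios of 0.503 and 0.659. *Col23a1* had 322, 323 and 222, with ratios of 1.00 and 0.690, and its other 2 probe sets had ratios of 0.472 and 0.361 after fusion. *Col25a1* and *Col23a1* were therefore lowest after fusion in their brightest probe sets, and *Col25a1* lowest during fusion in its other one.

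*Col7a1*, which forms the anchoring fibrils under the epithelial basement membrane, stayed within 2-fold, with 105 before, 133 during and 94.2 after fusion and ratios of 1.27 and 0.90. The basal keratin genes *Krt5*, *Krt15* and *Krt14* were 7.33-fold, 3.17-fold and 2.64-fold higher after fusion, whereas *Trp63*, the transcription factor of basal cells, had a ratio of 0.613. The part of the epithelial share in the ratio of *Col17a1* was not tested. *Col26a1*, a secreted collagen, had 680.5, 635 and 868, with ratios of 0.934 and 1.28.

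The multiplexins link basement membranes to the matrix beneath, and 1 of the 2 was over 2-fold lower at each later stage, *Col15a1* during and *Col18a1* after fusion. *Col18a1*, whose product also yields endostatin, had 930.2 before, 522 during and 361 after fusion, with ratios of 0.561 and 0.388, and its other probe set had ratios of 0.769 and 0.631. *Col15a1*, known from vessels and muscle, had 120, 58.8 and 72.8, with ratios of 0.492 and 0.609. *Col18a1* was thus lowest after and *Col15a1* lowest during fusion. The sums of the endothelial and of the muscle markers given above were also lower at both later stages, and their part in these ratios was not tested.

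Chains that assemble with each other were compared by the difference of their log2 ratios. After over before fusion, the ratio of *Col1a1* exceeded that of *Col1a2* by 2.02 on the log2 scale (4.07 times), and by 1.25 to 2.12 over the 4 pairs of their probe sets with signals over 100. The ratio of *Col9a2* exceeded that of *Col9a1* by 2.24 (4.72 times), compared by their brightest probe sets only. The ratio of *Col11a1* exceeded that of *Col2a1* by 2.73 (6.63 times), or by 2.35 with the other probe set of *Col11a1*. Smaller differences were those of *Col8a2* over *Col8a1* (2.79 times), *Col6a3* over *Col6a2* (2.70 times) and *Col5a2* over *Col5a1* (2.47 times). For type V the difference changed sign between pairs of probe sets, from -1.30 to 0.10 for *Col5a1* minus *Col5a2*. For types I, VI (*Col6a3* minus *Col6a2*) and VIII it kept its sign over the pairs of bright probe sets. *Col4a1* minus *Col4a2* was 0.02 during and -0.50 after fusion, and *Col4a5* minus *Col4a6* was 0.59 after fusion, so by their brightest probe sets the partners within these pairs differed by less than a factor of 1.51. A factor applied to a whole array cancels in these differences.

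**Figure D3:**
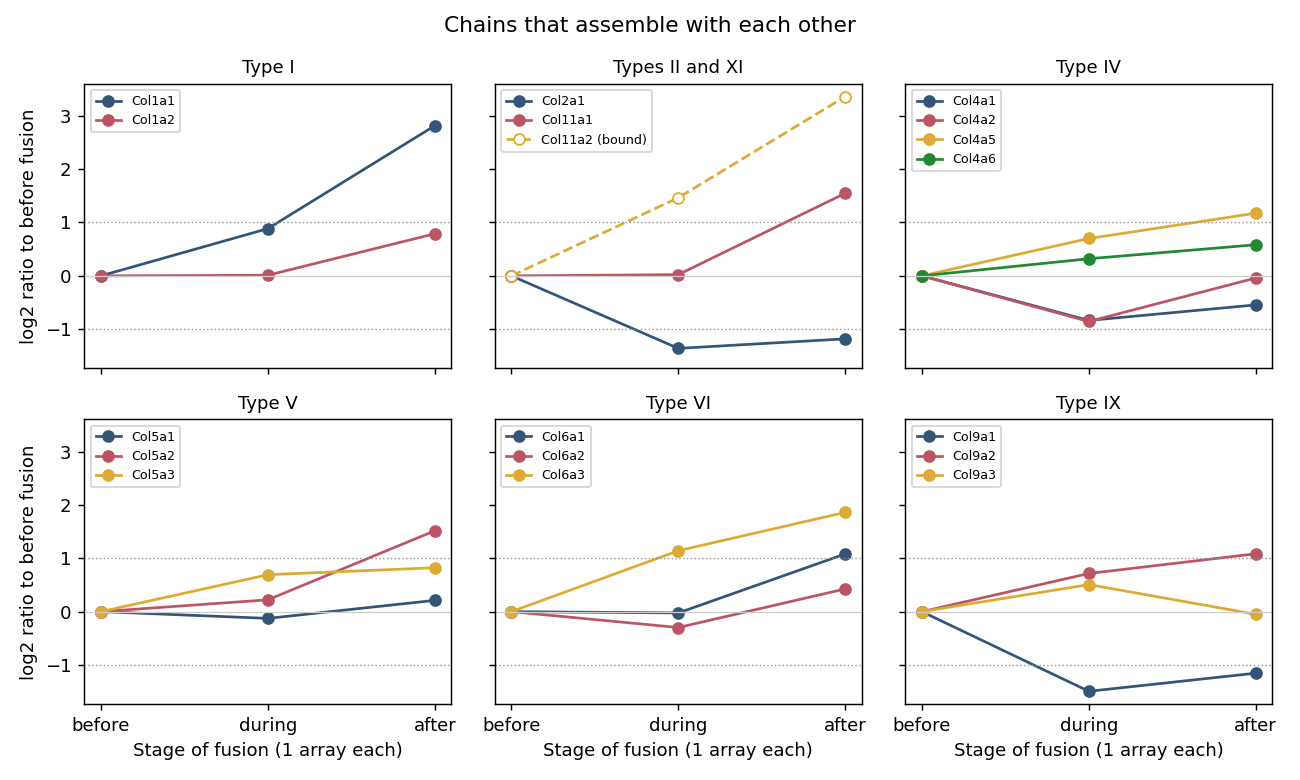
Log2 ratio to the array before fusion (y axis, log2 units) of chains that assemble with each other, by stage (x axis, 1 array each), with open points and a dashed line for a bound and dotted lines at 2-fold. The lines of *Col1a1* and *Col1a2*, of *Col2a1* and *Col11a1*, and of *Col9a1* and *Col9a2* end 2.02, 2.73 and 2.24 apart, whereas those of *Col4a1* and *Col4a2* overlie each other during fusion.

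The probe sets of one gene were the only repeated measurement, and they repeat neither the tissue nor the array. After over before fusion, 21 collagen genes had 2 or more probe sets with a ratio, and 9 of these genes passed 2-fold by their brightest probe set. In all 9 every probe set had the same direction, and in 5 (*Col1a1*, *Col4a5*, *Col11a1*, *Col12a1* and *Col22a1*) every probe set passed 2-fold. For *Col5a2*, *Col9a1*, *Col18a1* and *Col25a1* a dimmer probe set stayed within 2-fold. The other way round, *Col1a2* and *Col23a1* passed 2-fold only with a dimmer probe set, and 5 genes (*Col1a2*, *Col3a1*, *Col5a1*, *Col8a1* and *Col27a1*) had probe sets of opposite direction. Among collagen genes the SD between probe sets was 0.26, 0.48 and 0.53 on the log2 scale in the 3 comparisons, beside 0.37, 0.46 and 0.44 for all genes.

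**Figure D4:**
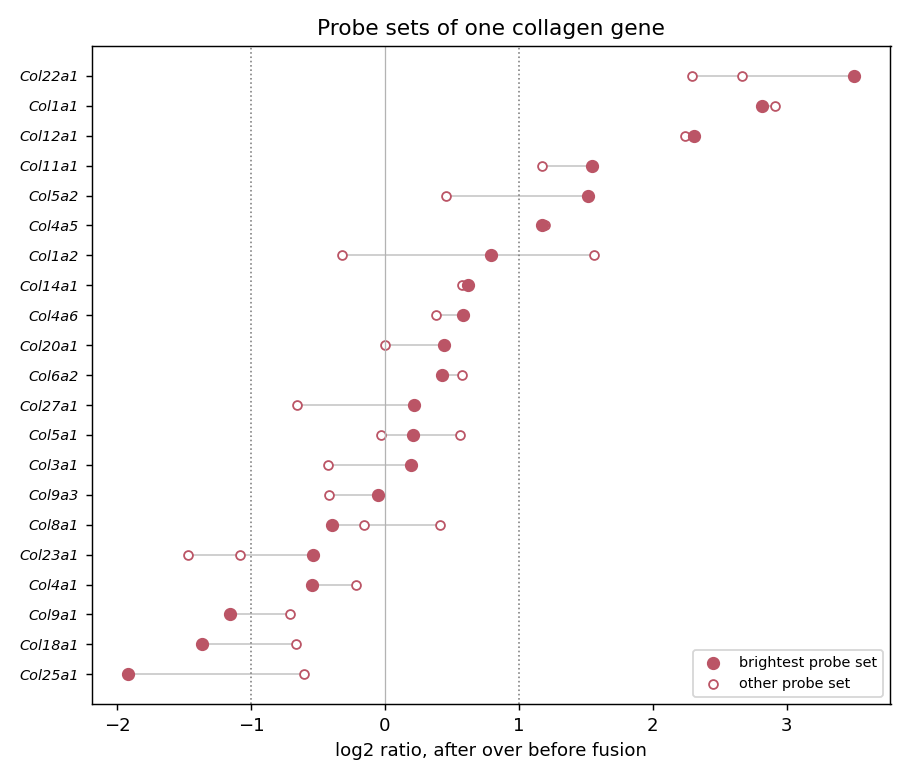
Log2 ratio after over before fusion (x axis, log2 units) of each probe set of the 21 collagen genes with 2 or more measured probe sets, with a filled point for the brightest and open points for the others, and dotted lines at 2-fold. All points of *Col22a1*, *Col1a1*, *Col12a1*, *Col11a1* and *Col4a5* lie to the right of 2-fold, and the points of *Col1a2* span both sides of 0.

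Collagen chains are hydroxylated, folded and glycosylated in the endoplasmic reticulum before export. Of 20 measured genes of these steps, 2 passed 2-fold upward after fusion and 0 downward, beside 12.6% and 9.6% of all genes, with a median log2 ratio of 0.28. *P4ha1*, a catalytic subunit of prolyl hydroxylase, had 156, 224 and 471, and its ratio after fusion was 3.02, and *Tmem38b*, a channel of the endoplasmic reticulum, had a ratio of 2.22. *Serpinh1*, the collagen chaperone HSP47, had 4706, 4137 and 6397 and a ratio of 1.36, and *Plod2*, a lysyl hydroxylase, had 312, 449 and 259 and a ratio of 0.829. The other 18 genes of these steps stayed within 2-fold.

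The same shares of all genes, 12.6% higher and 9.6% lower after over before fusion, stand beside each of the lists that follow. Of 11 measured genes of procollagen export, 1 was higher, *Creb3l1*, a transcription factor of bone-forming cells that acts on *Col1a1*, with 91.4, 197 and 345 and a ratio of 3.77. Of 7 genes of propeptide cleavage, 1 was higher, *Pcolce*, an enhancer of procollagen C-proteinase, with 611, 802 and 2300.1 and a ratio of 3.76, while *Bmp1*, the proteinase itself, had a ratio of 0.818.

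Of 16 measured genes of cross-linking and fibril assembly, 8 passed 2-fold upward after fusion and 0 downward, beside 12.6% and 9.6% of all genes, and the median log2 ratio was 1.14. *Thbs2*, a matricellular protein that affects fibril shape, had 86.3, 360 and 909, a ratio of 10.5. *Dcn*, decorin, which coats fibrils, had 469, 1108 and 3419, a ratio of 7.29. *Lox*, the lysyl oxidase that starts cross-links, had 413, 1048 and 2240.1, with ratios of 2.54 during and 5.42 after fusion, and its relative *Loxl4* was at least 4.78-fold higher. Each of these 4 was highest after fusion, like *Col1a1*, *Col5a2* and *Col12a1*.

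Of 9 measured collagen receptors, 1 was higher and 1 lower after fusion, close to the shares of all genes (12.6% and 9.6%). *Itga10*, an integrin subunit that binds type II collagen, was at least 3.59-fold higher. *Ddr2*, a receptor tyrosine kinase for fibrillar collagen, had 354, 186 and 113, a ratio of 0.321, and its relative *Ddr1* of epithelia had 2025, 2721 and 3143 and a ratio of 1.55. *Adgrg6*, a receptor for type IV collagen, had 129, 60.9 and 127, with ratios of 0.472 during and 0.982 after fusion, so it was low during fusion as *Col4a1* and *Col4a2* were.

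Of 16 laminins, nidogens and other basement membrane partners of type IV collagen, 1 was higher after fusion, *Lamb3* of the laminin under basal keratinocytes (ratio 2.34), and 3 were lower, beside 12.6% and 9.6% of all genes, among them *Smoc1* (0.285) and *Smoc2* (0.418). *Nid1*, which links laminin to type IV collagen, had 536, 316 and 667, with ratios of 0.590 during and 1.24 after fusion, lowest during fusion like *Col4a1*. Of 9 genes of collagen breakdown, 3 were higher after fusion, beside 12.6% of all genes. The collagenase gene *Mmp13* had 9.25, 421 and 451, at least 23.2-fold higher after fusion, *Mmp9*, a gelatinase, had a ratio of 6.91 and *Ctsk*, the osteoclast protease cathepsin K, a ratio of 3.38. Macrophages express such proteases as well, and the summed signal of 4 macrophage markers was 319, 672 and 1966, with all 4 higher after fusion. Their part in these ratios was not tested.

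**Figure D5:**
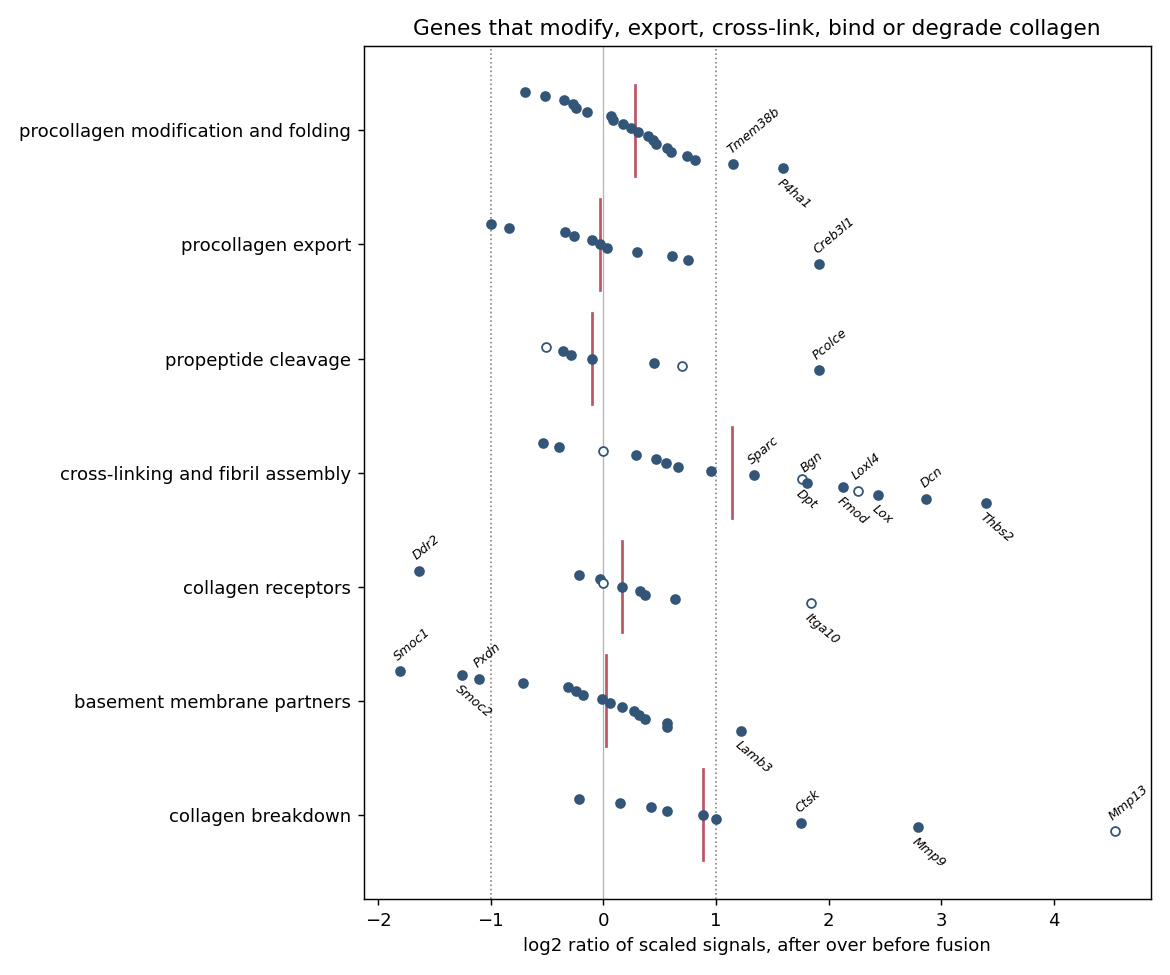
Log2 ratio after over before fusion (x axis, log2 units) of genes that modify, export, cleave, cross-link, bind or degrade collagens, 1 point per gene, open for a bound, with a red bar at the median of each list and dotted lines at 2-fold; genes past 2-fold are named. The list of cross-linking and fibril assembly has 8 of 16 points to the right of 2-fold and a median of 1.14, and the list of modification and folding has 2 of 20 and a median of 0.28.

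The summed signal of the 7 palatal mesenchyme markers was 9536 before, 4689 during and 2341 after fusion. During fusion 5 of 7 were over 2-fold lower and after fusion 6 of 7, beside 3.19% and 9.6% of all genes. *Twist1*, the exception after fusion, had a ratio of 0.792. Of 5 Schwann cell markers, 3 had a probe set, with sums of 581, 480 and 465, mostly from *Erbb3* (480, 418 and 413). *Foxd3* was over 2-fold lower during fusion (ratio 0.489) and *Sox10* after it (ratio 0.362). On the same arrays, of the main fibrillar and type VI collagens of mesenchyme, *Col1a1*, *Col5a2*, *Col6a1* and *Col6a3* were over 2-fold higher after fusion, and *Col1a2* (1.73), *Col3a1* (1.14), *Col5a1* (1.16) and *Col6a2* (1.34) stayed within 2-fold. Whether the mix of cells differed between the pieces was not tested.

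Of the 18 collagen calls after over before fusion, 7 of 14 higher ones (*Col1a1*, *Col6a3*, *Col11a1*, *Col11a2*, *Col12a1*, *Col13a1* and *Col22a1*) and 2 of 4 lower ones (*Col18a1* and *Col25a1*) held under each of 10 other settings of scaling, floor and probe set. During over before fusion, *Col12a1* (higher) and *Col9a1* (lower) were the calls that held under each, and after over during fusion *Col1a1*, *Col11a1*, *Col11a2* and *Col22a1* did. The calls of *Col2a1* and *Col17a1* in both comparisons with before fusion, and of *Col16a1* after over before, are not counted as held. The setting without probe sets that may match several transcripts left out their only probe set. In every setting that measured them, these calls passed 2-fold. With the poly-A controls, the ratios after over before fusion were 1.88 for *Col4a5*, 1.77 for *Col6a1*, 1.78 for *Col8a2* and 1.77 for *Col9a2*, and during over before fusion they were 1.94 for *Col6a3* and 1.86 for *Col13a1*. The ratio of *Col9a1* after fusion reached 0.525 and that of *Col15a1* during fusion 0.597, both at their closest to 1. *Col5a2* had 1.98 after over before and 1.90 after over during fusion when the median of its probe sets was taken, and after over during fusion the lowest ratio was 1.83 for *Col12a1* and 1.92 for *Col6a1*.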

How the data were processed

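The deposited intensity values are MAS5 signals on a linear scale, 1 per probe set and array, which the authors computed and background-corrected with the Affymetrix software; a scaling target is not given in the sources used here. RNA was extracted with Trizol per the methods and with a column kit per the labels. Groups were taken from the tissue labels, and hours of culture from the study's description. Of 45037 probe sets other than 64 controls, 34945 named 1 gene. The trimmed means of the arrays, taken after dropping 2% of the signals from either tail, were set equal by factors of 1.11 before, 0.918 during and 0.986 after fusion, and 56.8%, 65.6% and 61.4% of probe sets lay above the floor. The ratio of the 5′ to the 3′ probe sets of *Actb*, a sign of RNA quality, was 0.718, 0.713 and 0.718. Deposited zeros (4 values) were set to 0.1 where a log was taken. The number of arrays limits the precision. Ratios, counts past 2-fold and medians were computed with Python 3.11.15, numpy 2.4.6 and pandas 2.3.3, and the steps were tested on simulated data. The collagen genes and the 16 gene lists (154 entries) were chosen with earlier results of these data known. Values are given for collagen genes past 2-fold in at least 1 comparison and for the other chains of their types; values of the remaining measured collagen genes were added after they were seen, so that each gene with a ratio is shown. Of each partner list up to 4 higher and 2 lower genes were named beside *Serpinh1*, *P4ha1*, *Plod2*, *Lox*, *Bmp1* and *Ddr2*. Other genes named (*Ddr1*, *Twist1*, *Trp63* and *Sox9*, among others) were chosen after their values were seen. *Col6a6* and *Col28a1*, which no probe set named alone, and protein sequences were not analysed here. Alternatives covered scaling, floor, probe set and threshold, and the comparison of chains over all bright probe sets was added after seeing the data.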

Additional observations from a re-analysis of the deposited data

How the results depend on the processing

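No paired analysis was possible because there is 1 array per stage, so no replicate could be left out either. Of 66 recomputed counts of collagen genes past 2-fold, 53 stayed within 1.5 times the reported count, as did 862 of 885 single-gene ratios and 266 of 270 class medians within the spread between probe sets, and none changed from over 2-fold one way to over 2-fold the other. During over before fusion, 10 genes were higher with the signals as deposited and 6 lower with the poly-A controls. Without a floor, 7 were lower after over before and 4 after over during fusion. After over during fusion, 2 were lower with the hybridization controls, 2 with the mean floor added to both signals, and 0 with the median over probe sets. At 4-fold, 0 were higher and 0 lower during over before, 4 higher and 0 lower after over before, and 1 higher and 0 lower after over during fusion. *Col2a1*, *Col6a2*, *Col16a1* and *Col17a1* could not be measured without probe sets that may match several transcripts, since all their probe sets are of that kind. Signals near the floor limit *Col6a4*, *Col20a1* and *Col24a1*, and without a floor the log2 ratio after over before fusion was 4.85 for *Col11a2* and 5.14 for *Col22a1*. The median log2 ratio during over before fusion changed sign between scalings for type IV, type VI, hexagonal and unclassed collagens.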
